A study of Mus musculus with 4 samples.

Results

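*S100a8* and *S100a9*, 2 of the 18695 genes counted in single bone marrow cells of mice, were followed through every cell type that could be gated in 4 single-cell RNA libraries. The pair was chosen because its level across cell types and between genotypes stood out in these same data, so the levels and differences below are a description and not a test of that choice. The libraries came from *Tet2* KO mice (Mx1-Cre *Tet2* fl/fl, with Cre under the interferon-inducible Mx1 promoter) and from control mice, called WT, which were Mx1-Cre-negative *Tet2* fl/fl littermates. All mice had received 4 doses of pI:pC, an interferon inducer that switches the Mx1 promoter on, at 12.5 µg per g of body weight. The study used mice 8 to 12 weeks old. From each genotype 1 library was made of sorted GMPs, the granulocytic-monocytic progenitors (Lin- cKit+ Sca1- CD34+ CD16/32+), and 1 of a Lin-/CD11b+ sort, which holds early progenitors and mature myeloid cells. With 1 library per genotype and sort there is no replicate, no test between genotypes was made, and the intervals printed below are 95% intervals that cover counting error only.

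The protein products S100A8 and S100A9 bind calcium and zinc and join as calprotectin, which fills the cytosol of neutrophils and is also made by monocytes. Released calprotectin withholds metal ions from microbes and acts as an alarmin, a ligand of the receptor TLR4. In the bone marrow both genes come on as granulocytic progenitors mature, and *Tet2*, an enzyme that oxidises methylated cytosine, is often mutated in clonal haematopoiesis and in myeloid cancers. Because mature neutrophils carry so much of both mRNAs, RNA that leaks from them can reach every droplet of a library, and a neutrophil caught together with another cell can lend that cell its counts. The values per cell, the ratio of the 2 mRNAs and the counts of other neutrophil mRNAs are therefore given beside each level.

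Both genes lie on mouse chromosome 3 in the mm10 assembly (GRCm38), in opposite orientation and 22596 bases apart. *S100a8* runs on the plus strand (chr3:90668978-90670035, with 3 exons in its first annotated transcript), and *S100a9* on the minus strand (chr3:90692632-90695721, with 3 exons). The sequences just before the annotated starts are shown because the levels of the 2 mRNAs separated in several cell types. They were read from RefSeq promoters of GRCm38.p6, 5′ to 3′ along each gene, with capitals marking C/EBP-like and PU.1-like letters. The *S100a8* stretch is chr3:90668821-90668977 on the plus strand, and the *S100a9* stretch is chr3:90695722-90695971 on the minus strand.
S100a8: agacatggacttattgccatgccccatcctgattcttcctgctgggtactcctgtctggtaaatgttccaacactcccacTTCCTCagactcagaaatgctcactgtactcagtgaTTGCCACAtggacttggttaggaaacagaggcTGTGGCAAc
S100a9: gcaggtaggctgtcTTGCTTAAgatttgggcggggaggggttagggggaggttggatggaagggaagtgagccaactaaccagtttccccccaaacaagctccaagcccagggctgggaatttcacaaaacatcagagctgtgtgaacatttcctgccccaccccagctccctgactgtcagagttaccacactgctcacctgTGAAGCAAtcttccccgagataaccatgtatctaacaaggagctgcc

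The letters searched on both strands of the 250 bases before each RefSeq start were TTGCNNAA and TTGCNNCA (2 forms of a C/EBP site), GAGGAA (PU.1), TTCNNNGAA (STAT), TGANTCA (AP-1) and TATAAA. *S100a8* held TTGCNNCA at 134 and 102 bases before the start and GAGGAA at 170 and 36 bases. The match at 36 bases and a TATAAA at 30 bases fell in 93 bases that are not printed, because they lie in an annotated exon. *S100a9* held TTGCNNAA at 236 bases and TTGCNNCA at 47 bases before the start. Over 32851 mouse promoter windows of the same length, 9.56% held TTGCNNAA, 9.59% TTGCNNCA, 23.3% GAGGAA and 12.4% TATAAA. Neither gene held the STAT letters, present in 7.02% of windows, or the AP-1 letters, present in 6.75%. Each window had 2 CpG sites, the positions where cytosine can be methylated, against a median of 6, and 29.0% of windows had as few. These are matches of letters, and no binding or methylation was measured here.

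The libraries held 1258 (WT) and 2719 (*Tet2* KO) cells in the GMP sort, and 1924 and 3068 in the Lin-/CD11b+ sort, with 22681380 to 42561110 UMIs, the counts of distinct RNA molecules, in each. The median cell had 18713 and 15488 UMIs in the GMP sort but 11091.5 and 10417 in the Lin-/CD11b+ sort, so shares of cells with a UMI were compared after thinning every cell to 5000 UMIs. Any pair of libraries shared 4 to 8 cell barcodes. The study gives the cell numbers of the *Tet2* KO GMP and WT Lin-/CD11b+ libraries the other way round, and the deposited cell table was followed here. B or plasma cells and monocytes were found in the libraries that the table assigns to the Lin-/CD11b+ sort, with 0 and 2 cells of these types in the *Tet2* KO GMP library. *Tet2* itself, the gene deleted, had 13.02 and 16.99 CPM (UMIs of the gene scaled to a common library total) in the WT and *Tet2* KO GMP libraries and 13.4 and 20.7 in the Lin-/CD11b+ libraries. These counts come from the 3′ end of the transcript, which the deletion leaves in place, and so do not check the labels. Cells were sorted into types by marker genes that did not include *S100a8* or *S100a9*, and levels are CPM over all cells of a type. The median neutrophil held 689 UMIs of neutrophil markers per 5000, and the median monocyte 18 of monocyte markers. The median mono-biased GMP held 9 UMIs of its own markers and 18 of neutro-biased markers, so mono-biased names the markers it passed and not a lack of granulocytic mRNA. Clusters of cells built without the 2 genes matched the gates only in part. Of 704 gated monocytes 217 lay in the cluster named monocyte, 163 in mono-biased GMP, 135 in pDC and 174 in unnamed clusters. Of 1949 mono-biased GMPs 432 lay in the cluster of that name and 1273 in unnamed clusters. Whether the mix of cells under a gate differed between genotypes was not tested.

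*S100a8* and *S100a9* were first of all neutrophil genes. In the Lin-/CD11b+ sort the 130 WT and 125 *Tet2* KO neutrophils, which carried *Camp*, *Ngp* and other granule mRNAs, had *S100a8* at 213927 (213110 to 214747) and 194658 (193894 to 195424) CPM. Their *S100a9* was at 128630 and 119322 CPM. Every one of these cells held both mRNAs, with a median of 1931.5 *S100a8* UMIs per WT neutrophil (lowest 310, highest 5141) and 1897 per *Tet2* KO neutrophil (lowest 31, highest 4608). The medians and highest values of the genotypes were close, but 1 *Tet2* KO neutrophil and no WT neutrophil held under 100 *S100a8* UMIs. These 130 of 1924 WT and 125 of 3068 *Tet2* KO cells held 85.5% and 69.0% of all *S100a8* UMIs of the sort, and 86.0% and 74.6% of the *S100a9* UMIs. Another 28 WT and 63 *Tet2* KO cells passed the neutrophil gate together with the gate of a second type, most often the monocyte gate (11 and 34 cells). They held 12.5% and 19.6% of the *S100a8* UMIs and are in no type below.

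**Figure D1:**
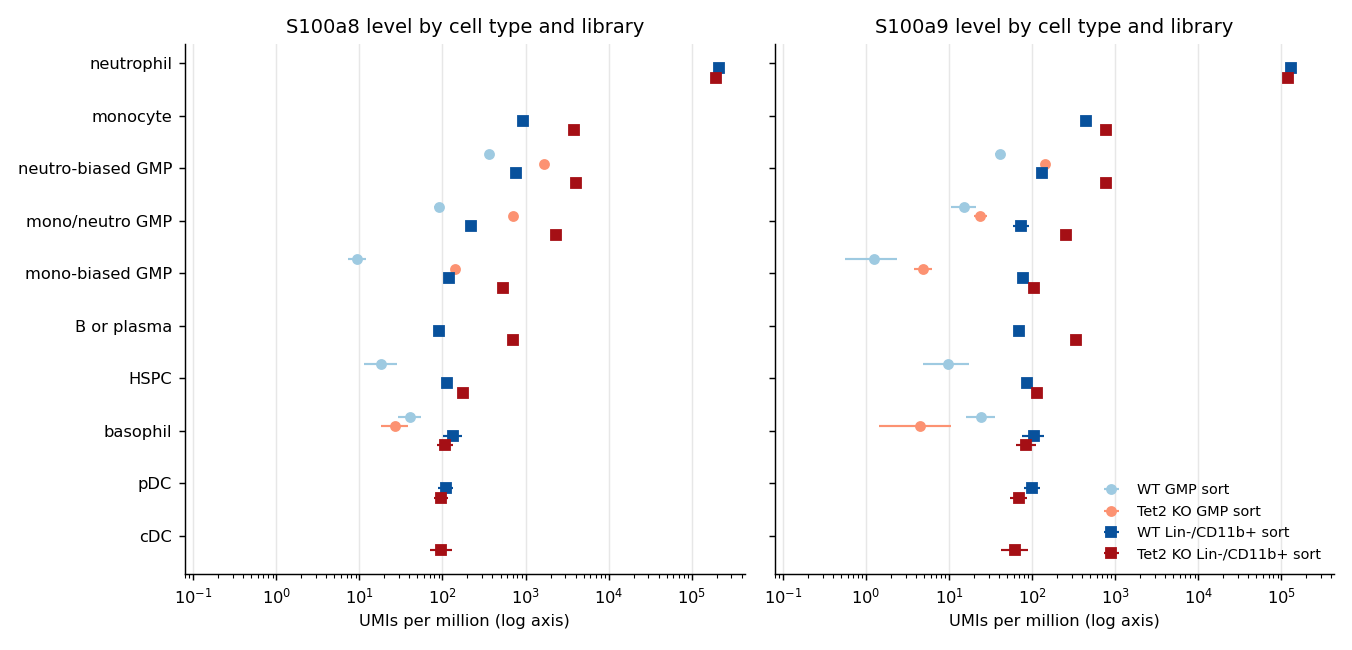
Level of *S100a8* (left) and *S100a9* (right) in CPM on a log axis, by cell type and library, with 95% Poisson intervals for counting error, for types with at least 50 cells in a library. Neutrophils stand at 119322 or above for both genes, and in the GMP sort the *Tet2* KO library is above the WT library in all 3 GMP types.

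Outside neutrophils *S100a8* was ordered by type in the GMP sort. In the WT library it was 359.6 (345.7 to 374.0) CPM in neutro-biased GMPs, 91.3 (79.6 to 104.2) in cells with markers of both GMP fates (mono/neutro GMPs), 40.4 (29.3 to 54.5) in basophils, 18.3 (11.3 to 28.0) in early progenitors (HSPC) and 9.45 (7.35 to 11.96) in mono-biased GMPs. The intervals of the last 2 types, HSPC and mono-biased GMPs, overlapped. In the *Tet2* KO library the order was 1676 (1652 to 1701) in neutro-biased, 702.6 (679.2 to 726.5) in mono/neutro and 140.7 (134.5 to 147.1) in mono-biased GMPs, with HSPC (21.2, 11.3 to 36.2) and basophils below them at 26.7 (18.05 to 38.2). Single cells bore on this order, since without its 3 highest cells the WT basophil level was 8.73 CPM, under that of HSPC. *S100a9* in WT was at 40.7 CPM in neutro-biased GMPs, 24.4 in basophils, 15.004 in mono/neutro GMPs and 9.60 in HSPC, where 3 cells held 94.4% of the mono/neutro value and 84.6% of the basophil value. In *Tet2* KO it was at 141.3 in neutro-biased and 23.8 in mono/neutro GMPs, 9.78 in HSPC and 4.46 in basophils. Mono-biased GMPs had almost none, 1.23 (0.56 to 2.34) CPM in WT and 4.90 (3.80 to 6.22) in *Tet2* KO.

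In the Lin-/CD11b+ sort every cell type carried a floor of both mRNAs. Plasmacytoid dendritic cells (pDC), which are not known for either protein, had 110.3 (88.9 to 135.3) *S100a8* CPM in WT and 95.6 (78.2 to 115.7) in *Tet2* KO. WT basophils, mono-biased GMPs, HSPC and B or plasma cells lay between 90.7 and 132.7 CPM, each overlapping its neighbour in this order. WT mono/neutro GMPs (221.4), neutro-biased GMPs (767.5) and monocytes (928.9) stood above that floor. In the *Tet2* KO library, neutro-biased GMPs (4033, 3949 to 4119) and monocytes (3888, 3828 to 3948) stood highest, their intervals touching without overlap, followed by mono/neutro GMPs at 2333, B or plasma cells at 702.4, mono-biased GMPs at 533.7 and HSPC at 177.6. Basophils, classical dendritic cells (cDC) and pDC closed the list at 108.0, 97.0 and 95.6, with overlapping intervals.

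Cells at the floor of the Lin-/CD11b+ sort also held other neutrophil mRNAs. *Camp* and *Ngp* encode the antimicrobial proteins cathelicidin and neutrophilic granule protein, and neutrophils held 1.74 (WT) and 2.13 (*Tet2* KO) *S100a8* UMIs per UMI of the pair. Given the *Camp* and *Ngp* counts of another cell type, this ratio says how much *S100a8* would come along with them. In WT pDC, HSPC and B or plasma cells it came to 110%, 101% and 101% of the *S100a8* counted, in WT basophils to 124%, and in *Tet2* KO pDC, cDC and basophils to 105%, 142% and 88.0%. Their counting intervals all include 100%. WT mono-biased GMPs of this sort were at 84.1% (74.2 to 94.9) and WT mono/neutro GMPs at 62.2% (49.7 to 76.9). For *S100a9* the match was less close. It came to 72.3% (54.9 to 93.5) in WT pDC, 78.2% (67.0 to 90.7) in WT HSPC and 78.8% (66.2 to 93.2) in WT B or plasma cells, whose intervals lie under 100%, and to 95.2% in WT basophils, 89.3% in *Tet2* KO pDC and 135% in *Tet2* KO cDC, whose intervals include it. *Tet2* KO basophils were at 68.6% (46.6 to 97.3). The source of the floor was not tested. The plasma cell mRNA *Igkc*, the immunoglobulin kappa chain, was spread in the same way, with 358.1 to 547.9 CPM in the WT types other than B or plasma cells, from mono/neutro GMPs to pDC, but 0 to 1.88 CPM in the types of the GMP sort.

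The share matched was far lower in monocytes and in several GMP groups. In *Tet2* KO monocytes *Camp* and *Ngp* accounted for 3.18% (2.79 to 3.61) of it and in WT monocytes for 12.4% (10.3 to 14.7). It was 13.1% in WT and 5.87% in *Tet2* KO neutro-biased GMPs of the Lin-/CD11b+ sort, and 15.04% in *Tet2* KO mono-biased GMPs. *Tet2* KO HSPC, at 56.4% (49.3 to 64.2), and B or plasma cells, at 8.93 to 13.4%, held a few very high cells, described further on. In the GMP sort, whose *Tet2* KO library had no cell in the neutrophil gate, the share at the ratio of Lin-/CD11b+ neutrophils was 1.31% in WT and 0.308% in *Tet2* KO neutro-biased GMPs. The 823 *Tet2* KO mono-biased GMPs of that sort held 1924 *S100a8* UMIs and 0 UMIs of *Camp* or *Ngp*, which allows at most 0.408% by this measure. *Camp* and *Ngp* mark late granulocyte maturation, so the ratio gauges RNA of mature neutrophils, and RNA of earlier granulocytic cells was not tested by it. With the granule genes *Ltf* and *Lcn2* counted as well, the 823 cells held 554 granule UMIs. *Ltf* was at 0 too, so all 554 were *Lcn2*. The cells had 3.47 *S100a8* UMIs per granule UMI, against 1.81 in *Tet2* KO neutrophils of the Lin-/CD11b+ sort. In those neutrophils 116949 of the 137174 granule UMIs were *Camp* or *Ngp*. The 2 ratios thus rest on different mRNAs and are not comparable.

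**Figure D2:**
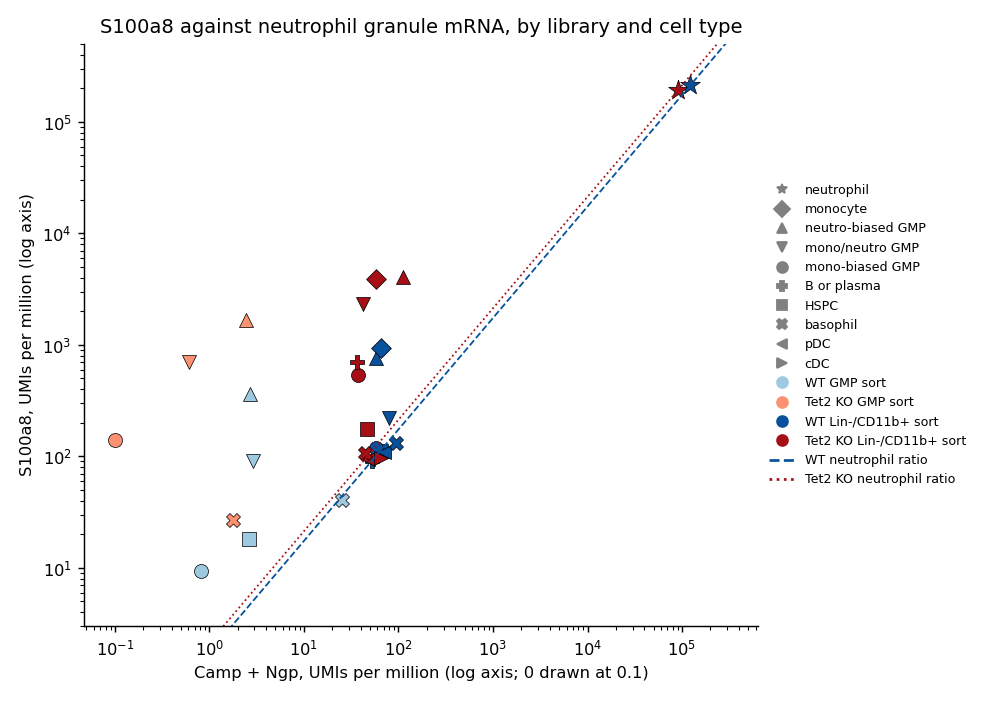
*S100a8* against the sum of *Camp* and *Ngp*, both in CPM on log axes, with 1 symbol per library and cell type and lines at the ratio found in WT and *Tet2* KO neutrophils. Most background types of the Lin-/CD11b+ sort lie on or near the lines, whereas GMPs of the GMP sort and *Tet2* KO monocytes lie well above them. *Tet2* KO B or plasma cells (ratio 19.3) and HSPC (3.78) also lie above the *Tet2* KO line at 2.13. Mono-biased GMPs of the *Tet2* KO GMP sort had 0 *Camp* and *Ngp* UMIs and are drawn at 0.1.

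In most GMP types and in monocytes of both genotypes *S100a8* was concentrated in a minority of cells rather than spread over all of them. Most *Tet2* KO mono-biased GMPs of the GMP sort had none (428 of 823 cells, 52.0%), 271 had 1 or 2 UMIs, and 37 (4.50%) had 10 to 92. The 21 highest cells (2.55%) held most of the UMIs. Of the 395 WT mono-biased GMPs 347 had none, and the highest cell had 5. Neutro-biased GMPs ran from 0 to 120 UMIs in WT, with 66 of 362 cells (18.2%) at 10 or more, and from 0 to 413 in *Tet2* KO, with 269 of 721 (37.3%). No cell of these types came near the median neutrophil.

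Monocytes of the 2 genotypes differed in how many cells carried the mRNA. In WT 11 of 225 monocytes (4.89%) had 10 or more *S100a8* UMIs, and 3 cells, with 935, 280 and 92 UMIs, held 73.6% of the total. In *Tet2* KO 151 of 477 (31.7%) had 10 or more, 49 had at least 100, the highest had 758, and the top 3 cells held 10.9%. The median monocyte had 1 UMI in WT and 3 in *Tet2* KO. In neutrophils the mRNA was spread more evenly, and it took 49 of 130 WT cells (37.7%) to hold most of it.

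**Figure D3:**
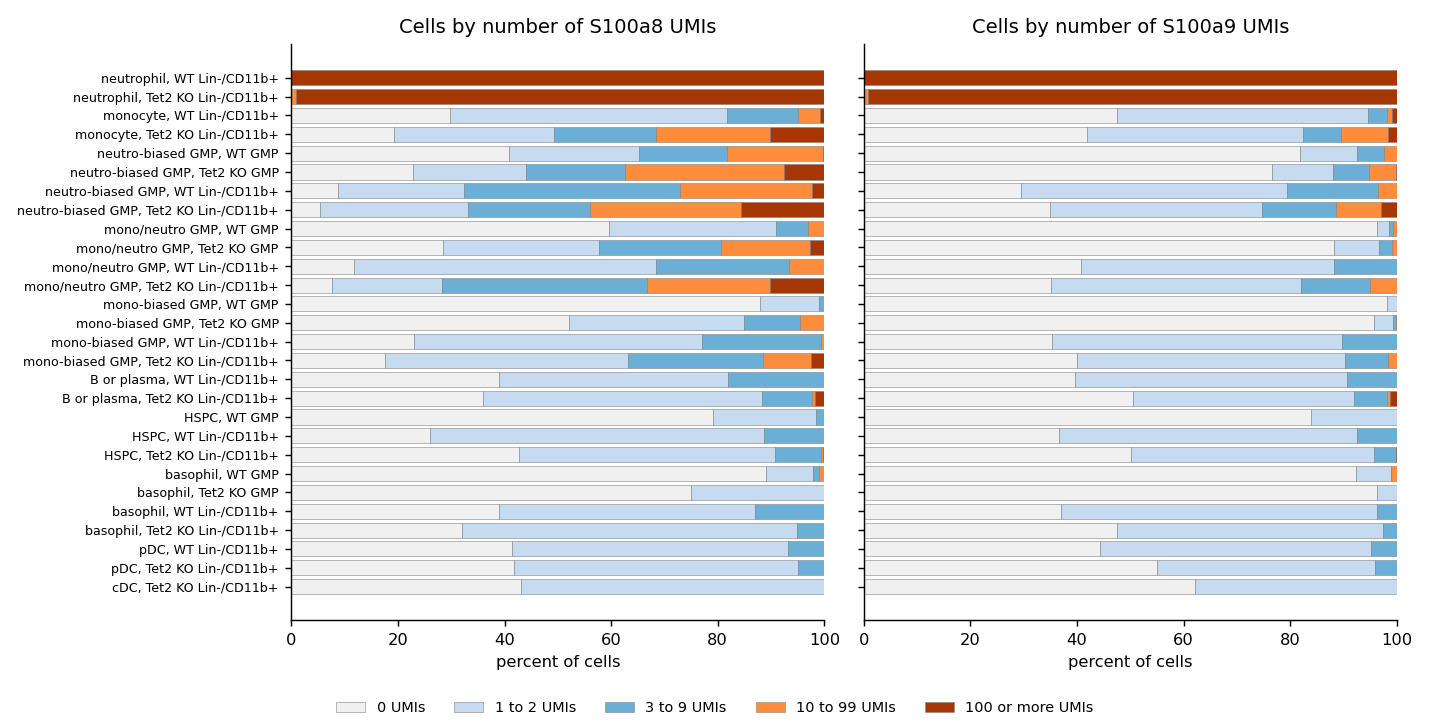
Percent of the cells of each type and library by their number of *S100a8* (left) and *S100a9* (right) UMIs, in 5 classes from 0 to 100 or more. Neutrophils fill the top class, *Tet2* KO monocytes and GMPs have wider bands at 10 UMIs and above than the WT cells of the same type and sort for *S100a8*, and pDC, cDC and nearly all basophils stay under 10.

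A few cells set the level of some lymphoid and progenitor groups. The 3 highest of the 222 *Tet2* KO B or plasma cells had 612, 415 and 400 *S100a8* UMIs, together 75.3% of the group, alongside 348, 495 and 128 UMIs of *Jchain*, the joining chain of secreted antibodies. They had 337, 200 and 134 *S100a9* UMIs but 0 or 1 of *Camp* and of *Ngp*. In their library they stood at the 85.0, 98.96 and 98.4 percentile of the Scrublet doublet score, a method taken not to have worked here. Among 495 *Tet2* KO HSPC 1 cell with 34573 UMIs had 343 *S100a8* and 191 *S100a9* UMIs. The WT GMP library had 1 neutrophil, with 1494 *S100a8* and 842 *S100a9* UMIs, which held 32.5% and 68.0% of all UMIs of the 2 genes in that library. It also had 1 basophil with 27 and 20 UMIs and, with them, 14 *Camp* and 12 *Ngp* UMIs. Whether such cells are doublets was not tested.

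The share of cells with at least 1 UMI separated the types less than the level did. After thinning, 26.0% (23.0 to 29.1) of *Tet2* KO mono-biased GMPs of the GMP sort had an *S100a8* UMI against 2.78% (1.40 to 4.93) in WT; without thinning, the shares were 48.0% and 12.2%. Basophils of the same libraries, taken as the background with median depths of 10441 and 10578 UMIs against 16535 and 18912 in the mono-biased GMPs, had 12.96% (7.27 to 20.8) in *Tet2* KO and 9.78% (4.57 to 17.8) in WT, or 27 of 108 cells and 10.9% unthinned. The WT mono-biased GMPs were thus at or under background and the *Tet2* KO ones above it. For *S100a9* both were at or under it, at 1.58% and 0.759% against 2.78% and 5.43% in basophils. In the Lin-/CD11b+ sort 68.6% (64.2 to 72.7) of *Tet2* KO and 51.6% (44.8 to 58.2) of WT monocytes had *S100a8*, 80.7% and 70.2% unthinned, against 41.8% (32.9 to 51.1) and 41.3% (31.8 to 51.4) of pDC. The depths of monocytes (medians 8048 and 8082) and pDC (8433.5 and 7430) were close. The WT intervals overlapped and the *Tet2* KO intervals did not. *S100a9* was found in 43.8% of *Tet2* KO monocytes against 27.9% of pDC, and in 34.2% of WT monocytes against 44.2% of pDC, which puts the WT monocytes at or under background for this gene.

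The 2 mRNAs did not keep one ratio. Counts from the 3′ end depend on the gene, so a ratio is read here only against the ratio in neutrophils, which held 1.66 (WT) and 1.63 (*Tet2* KO) *S100a8* UMIs per *S100a9* UMI. WT and *Tet2* KO pDC, basophils and HSPC of the Lin-/CD11b+ sort had 1.10 to 1.54, and the intervals of WT pDC (0.806 to 1.49), HSPC (1.09 to 1.54) and B or plasma cells (1.07 to 1.59) lay under the neutrophil ratio. *Tet2* KO mono-biased GMPs of the GMP sort had 28.7 (22.5 to 37.2) and mono/neutro GMPs 29.5 (24.5 to 35.8), whereas their WT counterparts had 7.67 (3.81 to 17.5) and 6.08 (4.26 to 8.91). Neutro-biased GMPs had 11.9 (11.3 to 12.5) in *Tet2* KO and 8.84 (7.82 to 10.0) in WT. In the Lin-/CD11b+ sort the ratio was 5.10 (4.91 to 5.30) in *Tet2* KO and 2.10 (1.93 to 2.28) in WT monocytes, 9.14 and 3.01 in mono/neutro GMPs, and 5.24 and 5.86 in neutro-biased GMPs, the last pair with overlapping intervals.

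**Figure D4:**
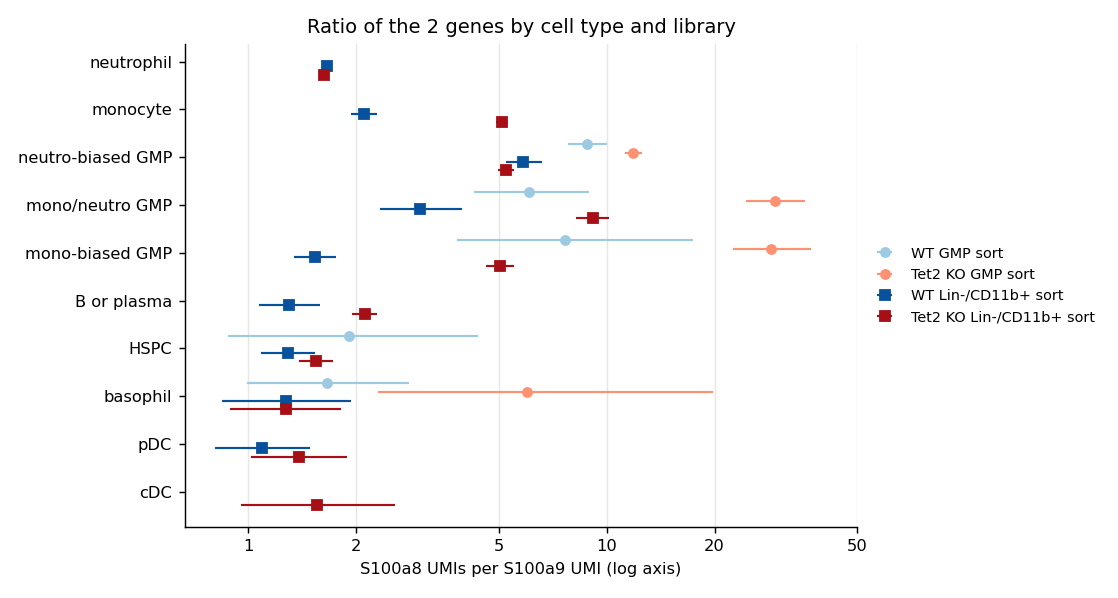
*S100a8* UMIs per *S100a9* UMI on a log axis, by cell type and library, with exact 95% intervals for counting error. Neutrophils sit at 1.63 and 1.66, most background types between 1 and 2, and mono-biased and mono/neutro GMPs of the *Tet2* KO GMP sort at 28.7 and 29.5.

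Many cells high in *S100a8* had no *S100a9* UMI. A count of 0 does not show that a cell lacked the mRNA, and the reason for these counts was not tested. Of the 37 *Tet2* KO mono-biased GMPs of the GMP sort with 10 or more *S100a8* UMIs, 24 (64.9%, 47.5 to 79.8) had no *S100a9* UMI, and the highest cell had 92 and 0. It was 132 of 269 (49.1%) in *Tet2* KO and 21 of 66 (31.8%) in WT neutro-biased GMPs, but 25 of 151 (16.6%) in *Tet2* KO monocytes and none of the neutrophils. None of the 37 mono-biased cells had a *Camp* or *Ngp* UMI. Of the 269 neutro-biased cells 254 (94.4%) had none, and of the 151 monocytes 90 (59.6%). With *Ltf* and *Lcn2* counted as well, only 12 of the 37, 143 of the 269 and 21 of the 151 cells had none. Their depth was close to that of the other cells of their type, with medians of 16898 against 16487.5 UMIs in the mono-biased GMPs 13504 against 15487 in the neutro-biased GMPs and 7950 against 8115.5 in the monocytes.

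A set of myeloid mRNAs was higher in the same cells, given here as a description of cells chosen by their *S100a8*. In *Tet2* KO monocytes the 151 high cells had 2229 *S100a9* CPM against 75.8 in the other 326, 492 against 39.9 CPM of *Lcn2* (lipocalin, an iron-withholding granule protein), 3412 against 676 of *Chil3* (a chitinase-like protein of maturing myeloid cells) and 391 against 37.0 of *Wfdc21*. The monocytic genes *Fn1* (471 and 431), *Lgals3* (2620 and 2181) and *F13a1* (682 and 617) were alike. *Ly86* (265 and 454), *Irf8* (245 and 385) and *Csf1r* (83.6 and 111) were lower. The granulocytic genes *Fcnb* (139 and 22.9), *Elane* (512 and 220), *Gstm1* (175 and 113) and *Cebpe* (21.8 and 9.52) were higher, and *Mpo* was at 99.4 and 82.5. In the 37 mono-biased GMPs *Chil3* was at 261 against 27.0, *Lcn2* at 128 against 36.3, *Wfdc21* at 66.3 against 8.28, and *Fcnb* (ficolin B, a lectin of granulocytic progenitors) at 53.7 against 10.5 CPM. Among genes of the monocytic fate *Irf8* (418 and 427), *Ly86* (215 and 220) and *F13a1* (335 and 362) were level, *Csf1r* was lower (28.4 and 48.5) and *Lgals3* higher (392 and 213). The granulocytic genes *Elane* (7427 and 4501), *Gstm1* (437 and 232) and *Cebpe* (34.7 and 15.3) were higher, and *Mpo* (3811 and 3862) was level. In *Tet2* KO neutro-biased GMPs *Fcnb* was at 144 against 11.6 CPM in the 452 other cells, while *Cebpe*, a regulator of granulocyte maturation, was at 215 and 197. Many of these genes are also gate markers, so the gates bear on how level they are. *Fcnb*, *Gstm1* and *Cebpe* are markers of the neutro-biased gate, and *Irf8*, *Ly86*, *Csf1r* and *F13a1* of the mono-biased gate. *Fn1* and *Lgals3* belong to the monocyte gate, *Lcn2* to the neutrophil gate and *Mpo* to the progenitor limit.

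Between genotypes, *S100a8* was higher in the *Tet2* KO library in the GMP lineage and monocytes and not in neutrophils. In mono-biased GMPs of the GMP sort it was at 9.45 CPM in WT and 140.7 in *Tet2* KO, on 69 and 1924 UMIs, a 14.9-fold (11.7 to 19.2) difference. In mono/neutro GMPs it was 7.70-fold (6.71 to 8.87) and in neutro-biased GMPs 4.66-fold (4.47 to 4.86) higher. *S100a9* was 3.98-fold (1.97 to 9.07), 1.59-fold (1.08 to 2.37) and 3.47-fold (3.06 to 3.96) higher in the same types. In mono-biased GMPs that rests on 9 WT and 67 *Tet2* KO UMIs, at 1.23 and 4.90 CPM. Basophils of the same libraries, taken as background, had 24.4 and 4.46 CPM of *S100a9*. With all cells, the intervals of the 2 genes did not overlap in any of the 3 types. Without the 3 highest cells of each library, *S100a8* in mono/neutro GMPs was 12.5-fold higher, and *S100a9* there, of which 3 WT cells held 94.4%, was 13.995-fold higher, at 0.858 and 12.01 CPM, so the order of the genes in that type rests on those cells. With 1 library per genotype these are differences between libraries.

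The Lin-/CD11b+ sort repeated the direction in the GMP types at other sizes. *S100a8* was 4.49-fold (4.10 to 4.93) higher in mono-biased, 10.54-fold (9.24 to 12.1) in mono/neutro and 5.25-fold (5.01 to 5.52) in neutro-biased GMPs, and *S100a9* 1.37-fold, 3.48-fold and 5.88-fold. Both sorts came from the same pair of genotypes, with 1 mouse each, so this is no second sample. Monocytes had 928.9 and 3888 *S100a8* CPM, 4.19-fold (3.98 to 4.40), and 442.2 and 762.7 *S100a9* CPM, 1.72-fold (1.60 to 1.86). Without the 3 highest cells of each library, chosen after the data were seen, monocytes had 248.6 and 3485 *S100a8* CPM, 14.02-fold, and 94.6 and 592.6 *S100a9* CPM, 6.27-fold. In the same way *S100a9* was 1.05-fold in mono-biased, 2.17-fold in mono/neutro and 3.68-fold in neutro-biased GMPs of that sort.

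Neutrophils went slightly the other way. *S100a8* was at 0.910 (0.905 to 0.915) and *S100a9* at 0.928 (0.921 to 0.934) of the WT level, and the single cells of both libraries overlapped over most of their range. pDC had 0.867 (0.649 to 1.16) of the WT *S100a8* and 0.687 (0.497 to 0.948) of the WT *S100a9*. Basophils of the Lin-/CD11b+ sort had 0.814 (0.568 to 1.17) and 0.815 (0.542 to 1.23). In the GMP sort basophils had 0.662 (0.401 to 1.08) of the *S100a8* level, but 2.53 times the WT level once the 3 highest cells were left out, since 1 WT cell held most of it. *S100a9* in these basophils was at 0.182 (0.0547 to 0.483) of the WT level, on 26 and 5 UMIs, and the same WT cell held 20 of the 26.

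The higher level in *Tet2* KO B or plasma cells, 702.4 against 90.7 CPM, was 7.74-fold (6.76 to 8.90) with all cells and 2.06-fold without the 3 highest. In HSPC it was 1.59-fold (1.39 to 1.81) with all cells and 0.903 of the WT level without them. Counted over the types that reached 50 cells in each genotype, *S100a8* was at least 2-fold higher in *Tet2* KO in 3 of 4 types of the GMP sort and 5 of 9 of the Lin-/CD11b+ sort, and *S100a9* in 2 of 4 and 3 of 9. Among all genes with at least 20 UMIs the share at least 2-fold higher was 1.47% in mono-biased, 1.84% in mono/neutro and 1.51% in neutro-biased GMPs of the GMP sort and 2.02% in basophils, where 3.06% were at least 2-fold lower. In the Lin-/CD11b+ sort it was 4.36% in monocytes, 8.57% in neutrophils, 2.94% in HSPC, 2.23% in mono-biased, 2.91% in mono/neutro and 2.4% in neutro-biased GMPs, 2.52% in pDC, 5.13% in basophils and 11.5% in B or plasma cells. The share at least 2-fold lower was 1.61% in mono-biased GMPs of the GMP sort, 1.41% in monocytes and 1.74% in neutrophils. Since the pair was chosen on these data, nothing is read from these counts.

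**Figure D5:**
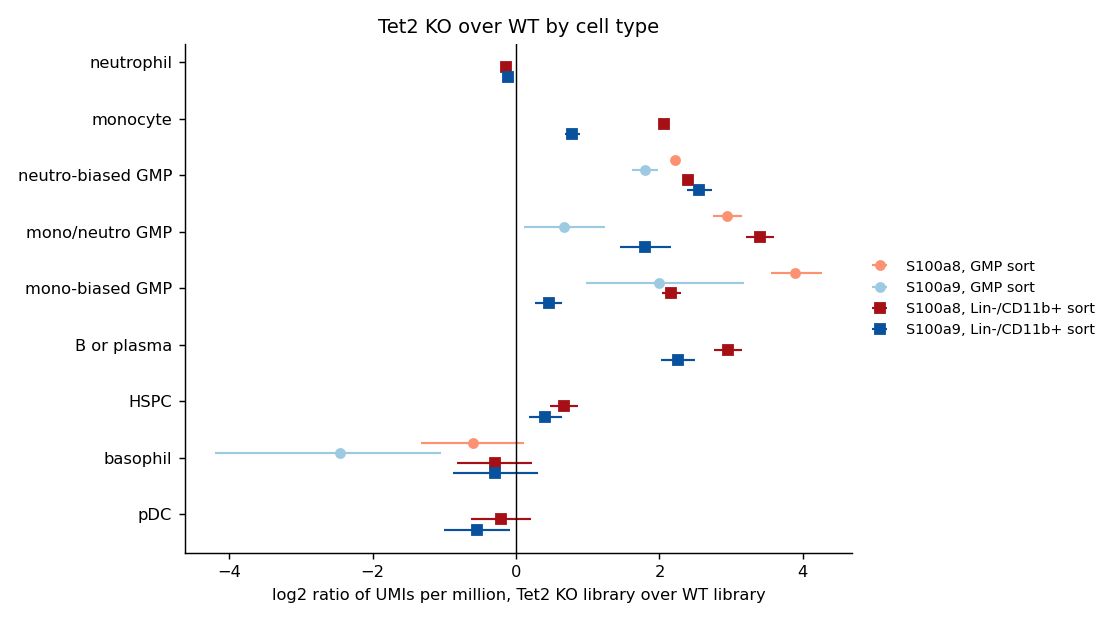
Log2 ratio of the *Tet2* KO to the WT library for *S100a8* and *S100a9* by cell type and sort, where each genotype had 50 cells or more, with exact 95% intervals for counting error. *S100a8* lies to the right of 0 in GMPs, monocytes, HSPC and B or plasma cells and at -0.14 in neutrophils.

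Other S100 genes differed less. The list holds family members and *S100pbp*, the gene of an S100 binding protein. Of its 7 genes with at least 20 UMIs in mono-biased GMPs of the GMP sort, 1 was at least 2-fold higher, *S100a4*, at 66.6 and 133.6 CPM, and none was lower. Among the most abundant were *S100a10* (589.6 and 696.9), *S100a11* (425.8 and 647.0) and *S100a6* (140.9 and 237.0). Their median log2 ratio, on CPM + 1, was 0.24 against -0.01 for all 10448 genes. In monocytes 0 of 7 were higher and 1 was lower, *S100pbp*, at 12.04 and 3.60 CPM, which is no family member. *S100a6* (2783 and 3472), *S100a10* (2113 and 1918) and *S100a4* (1315 and 1944) led there. In neutrophils, where the median of all 5567 genes was itself shifted by 0.25, 2 of 6 were higher, *S100a4* (58.6 and 167.4) and *S100a10* (48.1 and 172.8). The abundant *S100a11* (2249 and 1854) and *S100a6* (2065 and 1437) were slightly lower, as *S100a8* and *S100a9* were. The shares of all genes at least 2-fold higher and lower were 1.47% and 1.61% in mono-biased GMPs and 4.36% and 1.41% in monocytes. They were 8.57% and 1.74% in neutrophils. The same shares stand beside the counts of each list below.

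Of the receptors and binding partners of calprotectin, *Tlr4* was scarce. It had 1.37 and 2.34 CPM in mono-biased GMPs, 1.57 and 4.32 in monocytes on 3 and 18 UMIs, and 0 and 5 UMIs in neutrophils. Of 8 receptors and binding partners with at least 20 UMIs none passed 2-fold in mono-biased GMPs, where *Emb* (640.2 and 586.0), the membrane protein embigin, *Bsg* (292.8 and 287.6), the binding partner basigin, and *Cd69* (32.7 and 32.2) led. In monocytes *Tlr4* was the 1 higher of 8, with a log2 ratio of 1.46 whose interval (-0.32 to 3.87) includes 0, and *Cd14*, the co-receptor of TLR4, was the 1 lower at 41.3 and 18.7 CPM. *Ly96*, the protein that carries ligand to TLR4, was at 53.9 and 49.0. In neutrophils *Cd14* (14.7 and 1.56) and *Cd69* (21.2 and 4.69) were lower of 6. The list medians were -0.02, -0.13 and -0.19 against -0.01, 0.02 and 0.25 for all genes.

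Genes downstream of TLR4 that passed 2-fold were lower in the *Tet2* KO libraries, except *Nfkbia* in monocytes. The list medians lay under those of all genes in mono-biased GMPs, monocytes and neutrophils. In mono-biased GMPs 0 of 8 were higher and 3 were lower, the chemokine genes *Ccl3* (19.0 and 9.07 CPM), *Ccl4* (11.9 and 4.10) and *Ccl2* (2.88 and 0.951), with a median of -0.54. In monocytes *Nfkbia*, the inhibitor of NF-kB, was the 1 higher at 91.6 and 183.2, while *Ccl3* (120.9 and 26.9) and *Ccl4* (35.1 and 4.08) were lower, with a median of -0.38. In neutrophils *Cxcl2* was the 1 lower of 5, at 55.4 and 1.56 CPM, and *Nfkbia* (93.7 and 111.0) and *Tnf* (28.5 and 20.3) were among the most abundant. The neutrophil list median was -0.47, and the all-gene medians were -0.01, 0.02 and 0.25. Of all genes 1.47% were higher and 1.61% lower in mono-biased GMPs, 4.36% and 1.41% in monocytes, and 8.57% and 1.74% in neutrophils. With so few genes listed, nothing is read from the counts.

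The most abundant transcription factors of myeloid genes were lower in the *Tet2* KO libraries, most of them by less than 2-fold. Of 12 in mono-biased GMPs 1 passed 2-fold, *Fos*, an AP-1 subunit, at 581.1 and 249.1 CPM, and *Irf8* (568.6 and 426.4) and *Jun* (401.7 and 274.0) were the other abundant ones. *Cebpb*, a C/EBP factor of emergency granulopoiesis, was at 10.0 and 14.6, and *Spi1*, which encodes PU.1, at 256.0 and 267.5. In monocytes 0 of 11 passed, with *Fos* at 1260 and 685.9, *Irf8* at 645.8 and 340.0 and *Jun* at 521.2 and 414.7. In neutrophils 1 of 10 passed, *Klf4*, at 11.4 and 25.8 CPM, and *Cebpe* (519.6 and 478.6), *Fos* (468.3 and 259.6) and *Spi1* (313.5 and 275.3) led. The list medians were 0.08, 0.07 and 0.08, against -0.01, 0.02 and 0.25 for all genes. Summed over the list, the WT and *Tet2* KO levels were 1980 and 1399 CPM in mono-biased GMPs, 3259 and 2330 in monocytes, and 1857 and 1596 in neutrophils.

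Granule genes differed less than *S100a8* in the monocytic cells. In mono-biased GMPs 0 of 8 primary granule genes passed 2-fold, with *Prtn3* (5034 and 5178), *Elane* (4221 and 4637) and *Mpo* (4070 and 3860), the proteases and peroxidase of early granulocytes, near level. Of 5 secondary and tertiary granule genes *Lcn2* passed (11.4 and 40.5), while *Hp* was at 375.9 and 478.2. In monocytes *Lcn2* was higher (83.2 and 184.2) and *Cd177* (29.3 and 9.13) and *Ltf* (13.6 and 5.28) lower of 9, with *Camp* (31.4 and 30.5) and *Ngp* (34.5 and 27.6) level, and 1 of 8 primary granule genes was higher, *Ms4a3* (24.6 and 53.6). In neutrophils 5 of 8 primary granule genes were higher, among them *Elane* (140.1 and 468.4), *Prtn3* (148.2 and 366.0) and *Mpo* (57.0 and 234.6), as well as *Ctsg* (26.9 and 157.2) and *Ctsc* (18.7 and 48.5). None of 10 secondary and tertiary granule genes passed there, and *Camp* (69326 and 51347 CPM) and *Ngp* (53494 and 40110) were lower by less than 2-fold. Among all genes, 8.57% were at least 2-fold higher in neutrophils, 4.36% in monocytes and 1.47% in mono-biased GMPs.

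Of the late neutrophil and inflammation-linked genes, 3 were higher in both monocytic types. In mono-biased GMPs 3 of 8 were higher and 0 lower. They were *Saa3*, an acute-phase serum amyloid A gene (1.10 and 10.2 CPM), *Chil3* (7.81 and 37.8) and *Wfdc21* (2.74 and 10.97). The same 3 genes were the ones higher of 8 in monocytes, at 5.76 and 123.2, 683.0 and 1549, and 19.4 and 150.1 CPM. In neutrophils, the other way, 3 of 10 were lower and 0 higher, *Retnlg* (2916 and 1132), *Ifitm6* (2525 and 1017) and *Stfa2l1* (16.3 and 2.35), while *Wfdc21* (8436 and 7693) and *Chil3* (6442 and 6663) stayed near level. The list medians were 0.40, 0.31 and -0.65, against -0.01, 0.02 and 0.25 for all genes. Among all genes, 1.47% in mono-biased GMPs and 4.36% in monocytes were at least 2-fold higher, and 1.74% in neutrophils were lower.

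Over 28 groups of at least 50 cells of 1 type and library, the genes most like *S100a8* among 10811, by Pearson r of log2(CPM + 10), were *Fcnb* (0.95), *S100a9* (0.93), *Wfdc21* (0.92), *Chil1* (0.91) and *F5* (0.90). For *S100a9* they were *Ngp* (0.94), *S100a8* (0.93), *Camp* (0.93), *Pilrb2* (0.92) and *Ltf* (0.91). The groups share libraries and, in the Lin-/CD11b+ sort, a floor of both mRNAs, and the neutrophil groups have by far the highest levels. Over the 26 groups without neutrophils *Fcnb* (0.87) and *S100a9* (0.81) still led for *S100a8*, and *S100a8* (0.81) and *Ngp* (0.73) for *S100a9*.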

How the data were processed

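Single bone marrow cells were profiled by droplet 3′ RNA sequencing. Per the labels and the study's methods, the authors aligned reads to mm10 with Cell Ranger 3.1.0 and used Seurat. The deposited values are raw UMI counts per gene and cell of 18695 genes, with a table naming each cell's library, and 44 to 180 cells per library exceeded the study's mitochondrial limit of 5% and were kept here. Counts were summed per library and type, scaled to CPM, and given exact Poisson, conditional binomial and Clopper-Pearson 95% intervals, which cover counting error only. The depth per library was 22681380 to 42561110 UMIs. Cells were thinned to 5000 UMIs (seed 1) and gated by markers, for example at least 20 UMIs of 3 or more neutrophil markers; 198 to 696 cells per library passed no gate and 8 to 141 passed several. The gates were set after marker levels were seen. The progenitor and monocyte limits had 547 and 334 cells close to them. Scrublet called 0.346% of cells and was taken not to have worked, so doublets were not removed.

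The members and gene lists were chosen with earlier results of these data known. Named list genes are those at least 2-fold apart among genes with at least 20 UMIs, and the 3 most abundant of each list; other genes named beside them were chosen after their values were seen. *S100g* and *Stfa2* were not analysed here. Alternatives were Leiden clusters (resolution 0.8, 30 components, 30 neighbours, 2000 genes), TMM factors (edgeR 4.0.16), thinning, leaving out cells, and background subtraction. Scripts were tested on simulated data and used Python 3.11.15, numpy 2.4.6, scipy 1.17.1 and scanpy 1.11.5.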

Additional observations from a re-analysis of the deposited data

Results flagged for a closer look

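In 4 cases a type lay below 0 while others of its sort lay above 0, beyond counting error. The difference between the types was not tested in any of them. In the GMP sort, *S100a9* had a log2 ratio of *Tet2* KO over WT of -2.45 in basophils, on 26 WT and 5 *Tet2* KO UMIs, against 3 GMP types above 0. A single WT basophil, which also had 14 *Camp* and 12 *Ngp* UMIs, held 20 of the 26. In the Lin-/CD11b+ sort, neutrophils had -0.14 for *S100a8* and -0.11 for *S100a9*, and pDC had -0.54 for *S100a9*, against 6 types above 0 for each gene.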

How the results depend on the processing

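No paired analysis was possible because the labels give every library the same single replicate number. None of the log2 ratios (*Tet2* KO over WT) of mono-biased GMPs, monocytes and neutrophils changed sign under the alternatives run, and the cause of each shift was not tested. Leaving out the 3 highest cells, adding cells that pass both GMP gates and subtracting pDC and cDC levels were chosen after seeing the data. For *S100a8* in mono-biased GMPs the ratio was 3.54 in clusters, 2.98 without cells with neutrophil gene UMIs, 4.46 thinned, 3.28 with cells of both gates and 2.17 in the other sort. In monocytes it was 2.35 as a mean over cells, 3.20 in clusters, 2.67 without cells with neutrophil gene UMIs, 3.47 without the top 1% of cells, 3.81 without the 3 highest cells, 2.35 thinned, 1.95 after subtracting B, T or NK levels and 2.23 after subtracting pDC and cDC levels. In neutrophils it was -0.40 with TMM factors, -0.084 as a mean over cells, -0.15 in clusters, -0.079 without the highest Scrublet scores, -0.15 without the 3 highest cells and -0.086 thinned. For *S100a9* in mono-biased GMPs it was 0.77 without cells with neutrophil gene UMIs and 0.45 in the other sort. In monocytes it was 1.16 as a mean over cells, 1.60 in clusters, 2.37 without the top 1%, 2.65 without the 3 highest cells, 1.14 thinned, 0.27 after subtracting B, T or NK levels and 1.03 after subtracting pDC and cDC levels. In neutrophils it was -0.37 with TMM factors, -0.062 as a mean over cells, -0.14 in clusters, -0.051 without the highest Scrublet scores, -0.13 without the 3 highest cells and -0.061 thinned.

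Without the filter on low counts the genes at least 2-fold higher and lower numbered 1665 and 1274 in mono-biased GMPs, 2367 and 1439 in monocytes and 2725 and 1461 in neutrophils, against 154, 168, 392, 127, 477 and 97 with it. The share of cells with a UMI moved beyond its counting interval in 46 of its recalculations and the *S100a8* to *S100a9* ratio in 9. The other sort was not run for monocytes and neutrophils, background subtraction was not run for the GMP sort, and leaving out cells with neutrophil gene UMIs was not run for neutrophils. The limit is 1 library per genotype and sort.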
